A study of Mus musculus with 12 samples.

Results

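The Emx1 locus was described by its 12 peaks of cytosine modification, all rows of the deposited tables whose nearest gene is Emx1. They were 2 of 55085 5mC peaks and 10 of 47478 5hmC peaks, or 12 of 102563 peaks in all. Peaks were chosen by this annotation, whereas the gene was singled out with earlier results of these data known, so its levels are given as a description with no test. The series measured 5mC by MeDIP and 5hmC by hMeDIP, in which an antibody pulls down sheared DNA carrying the modified cytosine. The cells were sorted from the cortex of E14.5 mouse embryos that were heterozygous for both Btg2RFP and Tubb3GFP. All groups came from such embryos. Proliferating progenitors (PP) were Btg2-/Tubb3-, differentiative progenitors (DP) were Btg2+/Tubb3-, and neurons were Tubb3+ whatever their RFP. The labels list 12 samples, in which each of the 3 sorted populations has a pulled-down library and an untreated control per mark, and they do not separate replicates. Barcoded DNA of the populations was mixed and pulled down together. The tables hold 1 level per peak and cell type, the log2 of the authors' mean of normalised reads, and neither counts nor input levels. The tables thus give neither the depth behind a level nor the spread between replicates. The columns of the authors' own comparisons were not used here, and no difference below is set against a replicate error.

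Emx1 encodes a homeodomain transcription factor of the dorsal telencephalon and, together with its paralog Emx2, is known for its part in the patterning and growth of the cerebral cortex. It is made in cortical progenitors and in excitatory neurons derived from them, and its regulatory sequences are widely used to drive Cre in the dorsal forebrain. 5mC at CpG dinucleotides is the common form of DNA methylation in mammals, and Tet enzymes oxidize it to 5hmC, a step on a known path of active demethylation.

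No peak of either mark overlapped the promoter of Emx1. The nearest peak lay 10.9 kb behind the start, within the gene, with Emx1 at chr6:85187931-85204463 in RefSeq (GRCm38.p6, equal to mm10). Distances in the tables run from a start 492 bp further upstream. By these, 17.1% of 16293 listed genes had their nearest peak as far away or farther, and the median was 3837 bp. The 250 bases before the RefSeq start, chr6:85187681-85187930 on the plus strand, are printed here. They are rich in CpG and no peak covers them. They are taken from RefSeq, and capitals mark CpG dinucleotides.
Emx1 promoter: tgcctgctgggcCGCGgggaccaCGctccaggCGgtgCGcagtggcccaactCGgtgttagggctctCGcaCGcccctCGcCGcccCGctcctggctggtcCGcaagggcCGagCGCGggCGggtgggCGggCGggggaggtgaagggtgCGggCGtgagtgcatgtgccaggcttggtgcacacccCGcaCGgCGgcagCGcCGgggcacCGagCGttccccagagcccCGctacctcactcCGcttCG
These bases held 30 CpG dinucleotides and 75.6% G or C. Of 32851 promoter windows of this length, 5.94% held at least as many CpG dinucleotides, against a median of 6 and a median of 52.4% G or C. Peaks were rare at promoters in general, as 2.17% of the windows, extended to 50 bases behind the start, overlapped a peak of either mark. Motifs were searched on both strands. The E-box letters CANNTG occurred 1 time in the Emx1 window, and 66.2% of all windows held them. Letters CAGATG, an E-box of the kind that Neurog and Neurod factors bind and thus a subset of the former, did not occur, and 14.4% of the windows held them. The E-box CAGCTG was held by 13% of the windows and the homeodomain core TAATTA by 4.84%, and neither occurred in that of Emx1.

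Expression of Emx1 was highest in DP. Its value was 4885.8 for PP, 10161.4 for DP and 4663.8 for neurons, on the scale of the authors' earlier RNA-seq of the same cell types, which the tables do not name. DP thus stood 2.08-fold above PP, a log2 difference of 1.06, and 2.18-fold above neurons. The values of PP and neurons lay 1.05-fold apart, and whether these neighbours differ beyond the replicate error cannot be told. All differences in expression are on the log2(value + 1) scale. Of 16293 genes, 7.44% had a difference from PP to DP as high as that of Emx1, and 2.9% stood at least 1.5-fold above both other cell types in DP.

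Markers of the sort followed the labels. Expression of Tubb3, the neuronal tubulin behind the GFP reporter, was 3814.4 for PP, 25259.3 for DP and 105657.4 for neurons. Btg2, the antiproliferative gene behind the RFP reporter, stood at 19335.1, 38556.3 and 7483.9, so that its level in PP was above that in neurons. The summed expression of 7 progenitor markers was 229023.2 for PP, 116902.2 for DP and 13896.2 for neurons, and that of 6 markers of excitatory neurons was 9234.6, 70616.1 and 299594.3. The 4 markers of intermediate progenitors summed to 45780.2, 123602.4 and 14451.8, highest in DP. Tubb3 is in the list of excitatory neurons and Btg2 in that of intermediate progenitors, so these sums are not independent of the sort. Markers of inhibitory interneurons, which derive from the ventral telencephalon, were also higher in the Tubb3+ cells, and 4 of the 6 in the list had a value, summing to 971.4, 3615.8 and 10576.0. Their part in the Emx1 values was not tested, and in sorted cells in bulk a smaller share of Emx1 cells cannot be told apart from less Emx1 RNA per cell. Summed levels of 4 endothelial markers (398.9, 325.8 and 91.8), 2 microglial markers (309.1, 188.8 and 74.9) and 4 markers of the oligodendrocyte lineage (335.1, 448.7 and 36.1) were highest in PP or DP, and those of erythroid cells were represented by Hba-x alone, at 139.5, 22.5 and 31.1.

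The peaks lay within and behind the gene, none before it. By RefSeq, 2 5hmC peaks lay inside Emx1, and 2 5hmC peaks and 1 5mC peak lay between Emx1 and its neighbour Sfxn5. Another 6 5hmC peaks and 1 5mC peak lay inside Sfxn5, which codes for a mitochondrial carrier of the sideroflexin family. The edge of Sfxn5 that faces Emx1 lies 8.59 kb behind the end of Emx1. The authors assigned the 7 peaks inside Sfxn5 to Emx1 by the nearest start and marked them as downstream of it. By this rule the start of Sfxn5 is farther from them than that of Emx1. Exons and introns were not analysed here. Expression of Sfxn5 differed as well, with values of 3234.6 for PP, 3751.3 for DP and 854.2 for neurons, the last 4.39-fold below DP. Its part in the levels of the peaks inside it was not tested. By the nearest start, Emx1 had more 5hmC peaks than most genes, as 7.63% of 12848 genes with a 5hmC peak had 10 or more and the median was 2. Its 2 5mC peaks were below the median of 3 for genes with a 5mC peak. Such counts depend on the spacing of gene starts, and only 2 of the 10 5hmC peaks lay inside Emx1.

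**Figure D1:**
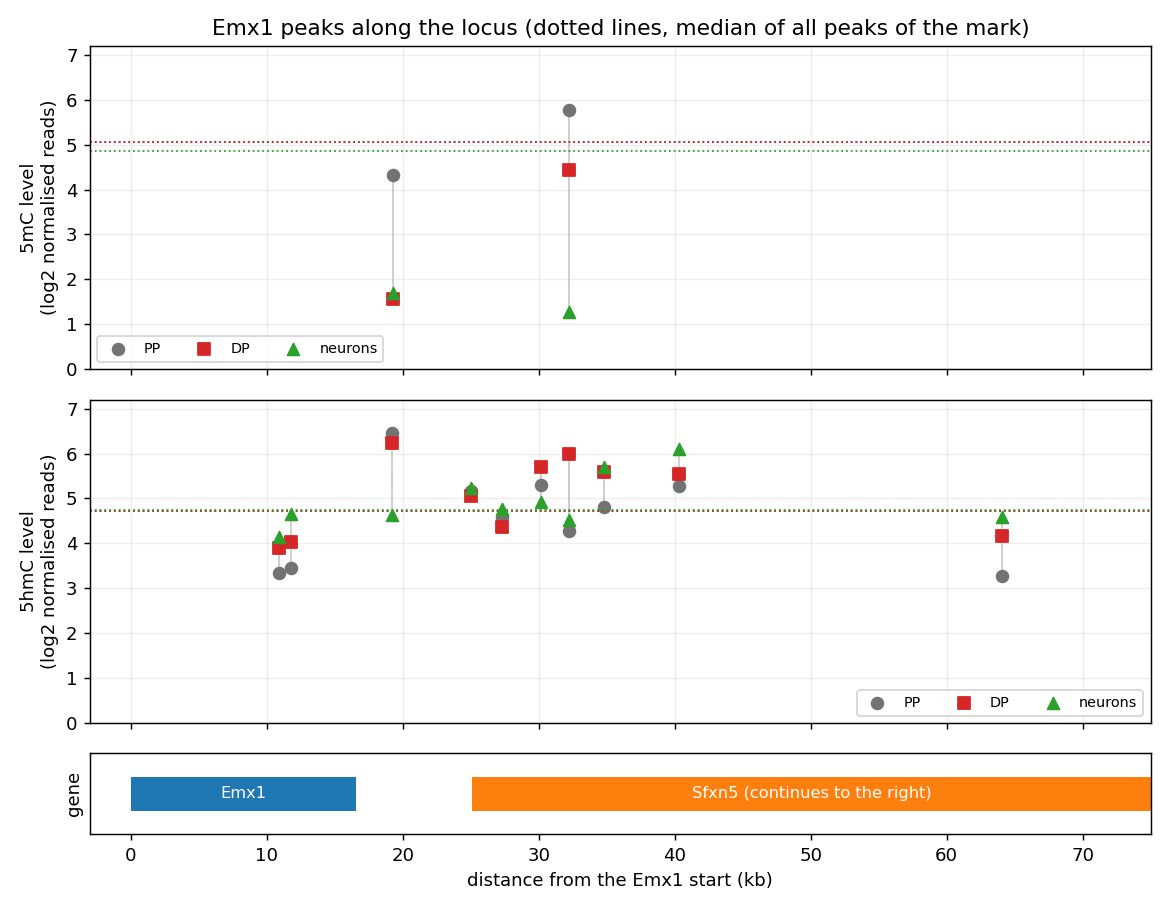
Levels of the 2 5mC peaks (top) and the 10 5hmC peaks (middle) of Emx1 on the authors' log2 scale, by distance from the RefSeq start in kb, with the bodies of Emx1 and Sfxn5 (bottom). Each symbol is the authors' mean of a cell type and dotted lines are the medians of all peaks. No peak lies in the first 10 kb, the 5mC symbols of neurons lie far below the median of all 5mC peaks, and the 5hmC peaks spread around their median.

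Both 5mC peaks were lower in DP and in neurons than in PP, and they differed in when the lower level was reached. The nearer peak, 19.3 kb behind the start between the genes (chr6:85207109-85207268), had a log2 level of 4.33 for PP, 1.57 for DP and 1.69 for neurons. On the linear scale these are 20.1, 2.97 and 3.22 normalised reads, so that PP stood apart from DP and neurons, which lay close together. The difference from PP to DP was -2.76, a 6.77-fold lower level that ranked 3 from the lowest of all 55085 5mC peaks. From DP to neurons the difference was 0.12. The level in DP was also low among all peaks, with 0.00908% of them at or below it, whereas in PP 14.9% were. Its mean level over the cell types, 2.53, was among the lowest as well, with 0.0327% of all 5mC peaks at or below it. The rank thus rests on a level of 2.97 normalised reads in DP.

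The farther 5mC peak, 32.2 kb behind the start and inside Sfxn5 (chr6:85220056-85220170), stepped down at each transition. Its log2 level was 5.77 for PP, 4.43 for DP and 1.28 for neurons, which are 54.4, 21.5 and 2.42 normalised reads. In PP it stood above most peaks, with 76.3% of all 5mC peaks at or below its level, and in neurons it was near the bottom, with 0.223% at or below. DP differed from PP by -1.34 and neurons from DP by -3.15, which are 2.53-fold and 8.89-fold lower levels. From PP to neurons it was -4.49, or 22.5-fold lower, which ranked 27 from the lowest. The neuron level was above the lowest one in the table, 0.11, which 38 peaks shared. Levels of 2 or 3 normalised reads leave little room for precision, and no interval can be given without counts.

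Measured over all 5mC peaks, a level at least 1.5-fold lower was found for 5.53% from PP to DP, 15.5% from DP to neurons and 16.3% from PP to neurons. Of the 2 Emx1 peaks, 2, 1 and 2 were lower by that size in the same order and none was higher, where 4.51%, 2.26% and 2.12% of all peaks were. The median level of all 5mC peaks was itself lower in neurons, by 0.18 against DP and against PP. Relative to this shift, the differences from PP to neurons were -2.46 and -4.31 and the difference from DP to neurons was 0.30 for the nearer and -2.97 for the farther peak.

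The 10 5hmC peaks did not move together. In DP 7 had a higher and 3 a lower mean level than in PP. Of all 5hmC peaks, 49.6% were higher in DP than in PP, while 50.4% were lower. In neurons again 7 of the 10 were higher and 3 lower than in DP. Neurons exceeded DP at 48% of all 5hmC peaks, with 52% lower. The 10 peaks had a median difference of 0.48 from PP to DP, against -0.0035 over all 5hmC peaks. From PP to neurons their median was 0.53 against -0.081. Differences of at least 1.5-fold upward were found for 4 of the 10 peaks from PP to DP, where 11.1% of all 5hmC peaks passed, for 1 from DP to neurons, where 15.8% passed, and for 5 from PP to neurons, where 20.2% passed. Differences of this size downward numbered 0 from PP to DP, 3 from DP to neurons and 1 from PP to neurons, against 4.74%, 7.8% and 10.8% of all peaks. Just inside the limit, the second peak within Emx1 had a difference from PP to DP of 0.59, and just outside it the first one had 0.56. From DP to neurons the second peak within Emx1 was also the one that passed, at 0.62, and relative to the median of all peaks it lay just under the limit.

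Inside Emx1 both 5hmC peaks had their lowest level in PP and their highest in neurons. The peak 10.9 kb behind the start (chr6:85198746-85198883) stood at 3.34 for PP, 3.90 for DP and 4.15 for neurons. The one at 11.8 kb (chr6:85199642-85199810) stood at 3.45, 4.04 and 4.65, or 10.9, 16.4 and 25.2 normalised reads, 2.3-fold higher in neurons than in PP. They are low peaks, as 6.06% and 12.1% of all 5hmC peaks had a mean level at or below theirs. Neither peak had its highest level in DP, where Emx1 expression was highest.

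Between the genes the 5hmC peaks were high and differed from each other. At 19.2 kb (chr6:85207101-85207258) the level was 6.45 for PP, 6.23 for DP and 4.64 for neurons, or 87.7, 75 and 24.9 normalised reads. PP and DP lay 1.17-fold apart and neurons were 3.01-fold below DP, a difference of -1.59 that 0.2% of all peaks reached. In PP 96.6% of all 5hmC peaks lay at or below its level. At 25 kb, 57 bp from the edge of Sfxn5 that faces Emx1, the levels of 5.16, 5.06 and 5.23 lay within 1.12-fold of each other.

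Within Sfxn5 the 6 5hmC peaks were divided between those with their highest level in DP and those with their highest level in neurons. DP was highest at 30.2 and 32.2 kb. The former stood at 5.30 for PP, 5.69 for DP and 4.93 for neurons, and the latter (chr6:85220085-85220241) at 4.28, 5.98 and 4.53, or 19.5, 63.1 and 23.2 normalised reads. Neurons were highest at 27.3, 34.8, 40.3 and 64.1 kb. Of these, the peak at 27.3 kb was nearly level, at 4.59 for PP, 4.37 for DP and 4.77 for neurons. The peak at 34.8 kb had reached most of its difference in DP, with 4.82 for PP, 5.60 for DP and 5.71 for neurons. At 40.3 kb the levels were 5.28, 5.54 and 6.11, the highest neuron level among the Emx1 peaks. At 64.1 kb, the farthest peak, they were 3.28, 4.17 and 4.58, and neurons stood 2.46-fold above PP.

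**Figure D2:**
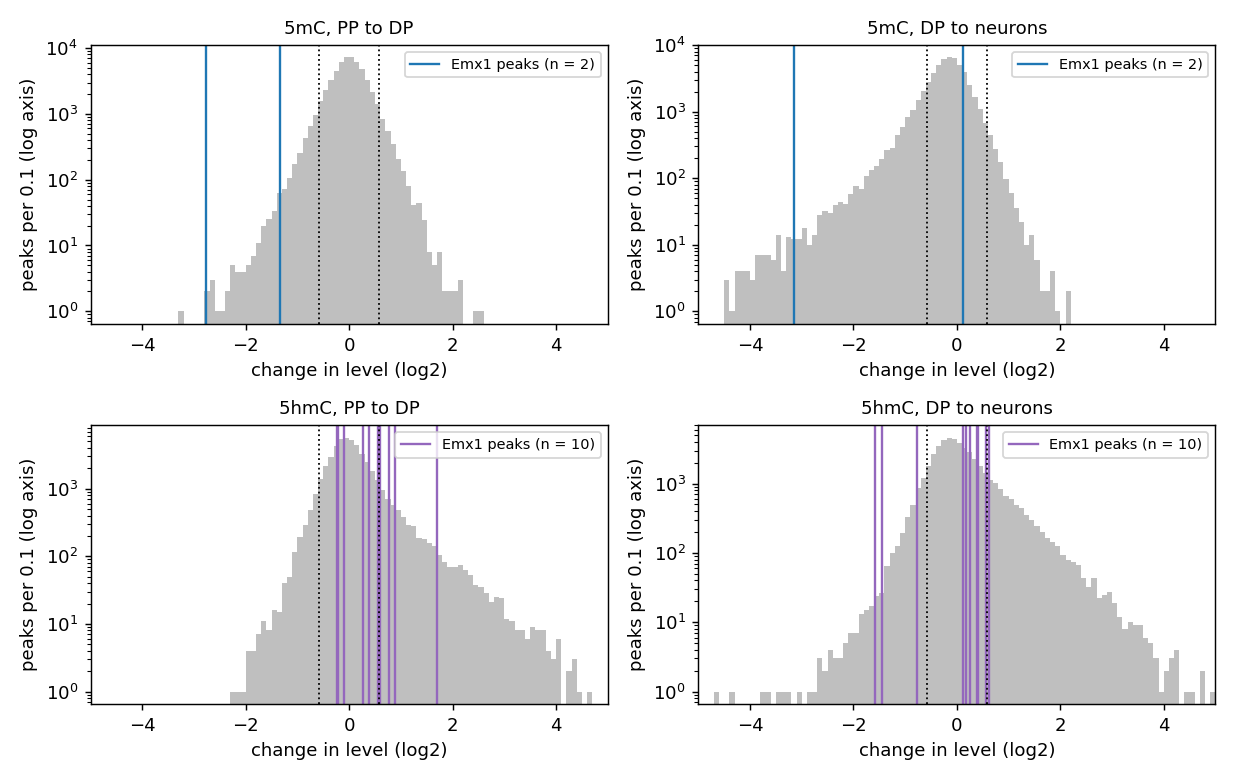
Differences in log2 level between cell types for all 5mC peaks (top) and all 5hmC peaks (bottom) as grey histograms with a log count axis, and for the Emx1 peaks as coloured lines. Dotted lines mark 1.5-fold. From PP to DP both 5mC lines lie left of the limit, at -2.76 and -1.34, and from DP to neurons 3 of the 10 5hmC lines lie left of it.

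Both 5mC peaks overlapped a 5hmC peak, so the marks could be set side by side at these sites, each on its own scale. The pair at 19 kb shared 149 bp, or 93.7% of the 5mC peak. There 5mC was already low in DP while 5hmC was still high, at 6.23, and the 5hmC level of neurons, 4.64, was close to the median of all 5hmC peaks, with 42.8% at or below it. Both marks were thus lower in neurons than in PP by at least 1.5-fold, which held for 0.758% of the 6727 overlapping pairs of the series. The difference in 5hmC from PP to neurons, -1.81, was as low in 8 of these pairs, this one included, and that in 5mC from PP to DP in 2.

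The pair at 32 kb shared 85 bp, or 74.6% of the 5mC peak. 5mC stepped down from PP through DP to neurons, whereas 5hmC was 3.24-fold higher in DP than in PP and 2.72-fold higher in DP than in neurons. A 5hmC level in DP at least 1.5-fold above both other cell types was found in 0.842% of all 5hmC peaks and in 57 of the overlapping pairs. In 13 of those 57, this one included, 5mC was also at least 1.5-fold lower at each transition, which is 0.193% of the 6727 overlapping pairs. Such lower 5mC at each transition, whatever the 5hmC, was found in 3.15% of the pairs. These patterns and that at 19 kb were chosen to describe the Emx1 pairs, so their shares are no test. Lower 5mC together with higher 5hmC in neurons than in PP, each by at least 1.5-fold, was found in 22.4% of the overlapping pairs and in neither Emx1 pair. From PP to DP the pair at 32 kb did show both, with differences of -1.34 in 5mC and 1.70 in 5hmC. The pair at 19 kb had -2.76 and -0.23. The share of all pairs with both from PP to DP was not computed.

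Set beside expression, 5hmC at 30.2 and 32.2 kb was highest in DP, as Emx1 was. Both peaks lie inside Sfxn5, whose expression was also highest in DP, at 3234.6 for PP, 3751.3 for DP and 854.2 for neurons. A link of these peaks to either gene was not tested. At 30.2 kb DP stood 1.31-fold above PP, which is below the 1.5-fold limit. The lowest level was in neurons at 30.2 kb and in PP at 32.2 kb, and for Emx1 expression these cell types lay 1.05-fold apart. The remaining 8 5hmC peaks and both 5mC peaks had their highest level in PP or in neurons. These are 3 cell types and averaged values, so no correlation is given.

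**Figure D3:**
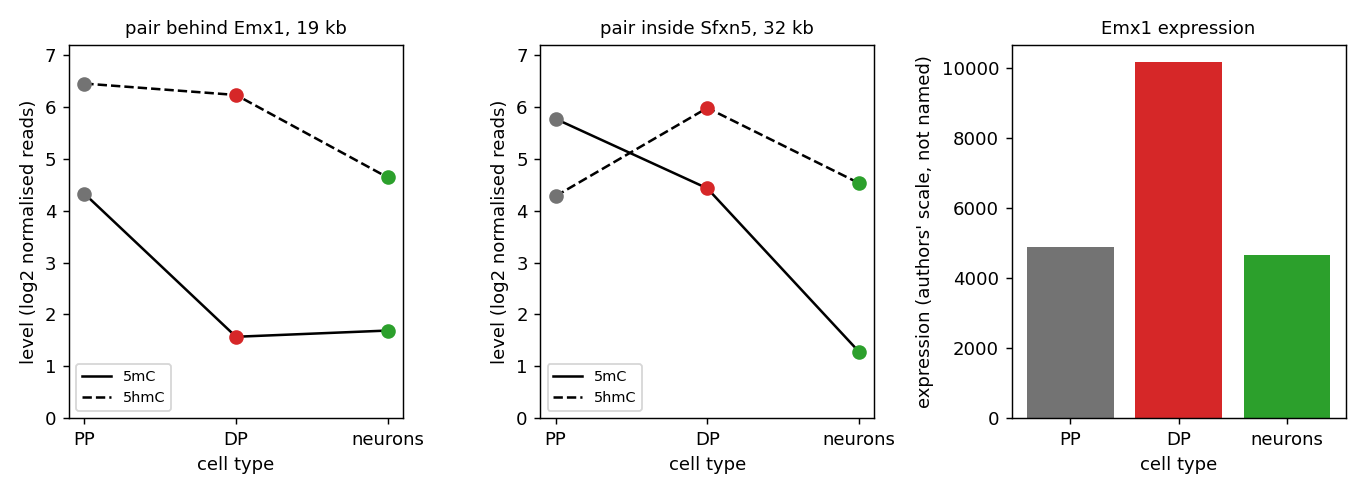
Levels of 5mC (solid) and 5hmC (dashed) at the overlapping pairs 19 and 32 kb behind the Emx1 start, on the authors' log2 scale, and Emx1 expression on the authors' scale, in PP (grey), DP (red) and neurons (green). Each point or bar is 1 averaged value without error bar, and the height of 5mC cannot be compared with that of 5hmC. At 32 kb 5hmC and expression are highest in DP while 5mC steps down.

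Emx1 was compared with a list of 30 transcription factors of cortical patterning, progenitors and projection neurons, of which 24 were the nearest gene of a peak and so had an expression value. By expression, 13 of the 24 were at least 1.5-fold higher and 3 lower in DP than in PP, against 13.7% and 17% of all genes. From DP to neurons 10 were higher and 13 lower, against 26.2% and 26.1%. At least 1.5-fold higher in DP than in both other cell types, as Emx1 was, were Dmrt3, Eomes and Neurog2. Eomes, a T-box factor of intermediate progenitors, stood at 10187.6 for PP, 50496.7 for DP and 3626.3 for neurons, and Neurog2, a proneural bHLH factor, at 15976.3, 32860.8 and 2440.5. Dmrt3, a DM-domain factor of the dorsal telencephalon, stood at 1166.3, 1848.1 and 581.5. All 3 were lower in neurons than in PP, by 2.81-fold, 6.54-fold and 2-fold, whereas Emx1 in neurons lay near its PP value.

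The paralog Emx2 differed from Emx1 in DP. Its expression was 5082.5 for PP, 4732.3 for DP and 1044.2 for neurons, with DP 1.07-fold below PP and 4.53-fold above neurons. Among the other listed factors, Pax6 was 21.2-fold, Hes1 164-fold and Sox2 10.1-fold lower in neurons than in PP, all of them known from progenitors. Tbr1, Bcl11b and Neurod6, known from projection neurons, were 92.9-fold, 33.4-fold and 44.8-fold higher, whereas Cux1 and Otx1, which are also made in projection neurons, were 2.07-fold and 4.12-fold lower. In all, 11 of the 24 were at least 1.5-fold higher and 13 lower in neurons than in PP, against 29.8% and 31.2% of all genes. The neuron value of Emx1 was 1.05-fold below that of PP.

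**Figure D4:**
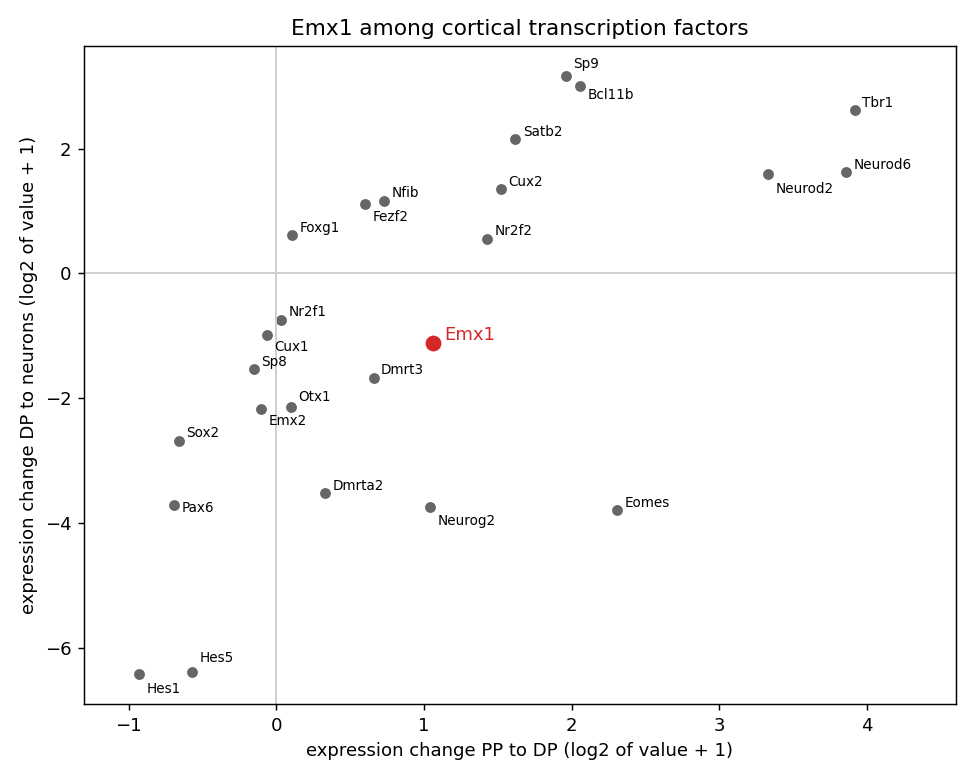
Expression differences of Emx1 (red) and 24 cortical transcription factors (grey), PP to DP on the horizontal and DP to neurons on the vertical axis, as log2 of value + 1. Each point is 1 gene from averaged values. Emx1, at 1.06 and -1.12, lies right of and below 0, as do Dmrt3, Neurog2 and Eomes and, with smaller differences from PP to DP, other listed factors such as Dmrta2 and Otx1.

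Across the same 24 genes, 104 5mC and 130 5hmC peaks were listed. Of the 5mC peaks, 12 were at least 1.5-fold lower in DP than in PP, 35 in neurons than in DP and 38 in neurons than in PP, against 5.53%, 15.5% and 16.3% of all 5mC peaks. In the same order, 3, 2 and 1 were higher by that size, against 4.51%, 2.26% and 2.12%. Among the 5hmC peaks, 22 were higher in DP than in PP, 31 in neurons than in DP and 39 in neurons than in PP, against 11.1%, 15.8% and 20.2% of all 5hmC peaks, while 5, 14 and 11 were lower, against 4.74%, 7.8% and 10.8%. A 5hmC level at least 1.5-fold higher in DP than in both other cell types, as at 32.2 kb of Emx1, was found in 2 of the 130, named here after their values were seen. They belonged to Emx2, at 3.75 for PP, 4.41 for DP and 3.34 for neurons, and to Sox2, at 4.16, 4.82 and 4.12. By the authors' distances they lay 122950 and 309320 bp from the gene starts. A peak of both marks was found at 17 of the 24 genes and an overlapping pair at 9. The share over all genes was not computed, so this count cannot be called high or low. Neurod2 had 1 peak of each mark and an overlapping pair. There both marks were at least 1.5-fold lower in neurons than in PP, as at 19 kb of Emx1.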

How the data were processed

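The tables were made by the authors, who aligned reads to mm10 with BWA 0.7.8-r455, called peaks with SICER 1.1, merged peaks found in all replicates, left out repeats, and annotated the nearest start with HOMER 4.7. Levels deposited by the authors are log2 of the mean DiffBind read level (TMM) of a peak per cell type. The deposited expression and distance columns are scores, the former on a scale not named and taken from an earlier RNA-seq study, the latter in bp from the gene start. A further 10 columns per table hold the authors' own fold changes and p-values or adjusted p-values and were not used.

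Emx1 rows were taken by symbol. Differences are those of these log2 mean levels, called at 1.5-fold (0.58 on the log2 scale). Peaks were paired at an overlap of at least 1 bp, with widths as end minus start. Peaks listed more than once (8 rows of 5mC, 5 of 5hmC) entered the pairs once. Expression used log2(value + 1). No test was run, since the tables hold no replicates, depth or input. Members and lists were chosen with earlier results of these data known. Named genes were Emx1, listed cortical factors that differed at least 2-fold from PP to neurons or had an overlapping pair, of which examples are given, and the 5 genes nearest to Emx1 in their expression differences, while the plot of listed factors labels all 24. Alternatives were a 2-fold limit, levels centred on the median, a minimum mean level of 4, a window of 50 kb, other overlaps, a pseudocount of 10 and, chosen after seeing the data, peaks outside Sfxn5. Scripts were tested on simulated data. Versions were python 3.11.15, pandas 2.3.3, numpy 2.4.6 and matplotlib 3.10.9. Gene bounds and the promoter came from RefSeq, GRCm38.p6. Sequences of the peaks were not analysed here.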

Additional observations from a re-analysis of the deposited data

How the results depend on the processing

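No paired analysis was possible because the tables hold 1 averaged value per cell type, and for the same reason no replicate was left out. Of 65 values under alternatives, 52 stayed within 1.5 times the one reported. The 3 expression differences kept their sign under a pseudocount of 10. All other values were counts of peaks or of overlaps, which have no direction, and some were 0 in every setting. The tally therefore says little about how firm a difference is. A 2-fold limit left 1 5hmC peak higher from PP to DP, 0 from DP to neurons and 2 from PP to neurons. Centring on the median of all peaks left 0 5hmC peaks higher from DP to neurons. At a mean level of at least 4, no 5mC peak was left and 0 were lower in any transition, but this mean includes the low levels of DP and neurons themselves, so that it bears on no 5mC call, and 9 of 10 5hmC peaks stayed. Without the peaks inside Sfxn5, 1 5mC and 4 5hmC peaks were left. Then 1 5mC peak was lower from PP to DP, 0 from DP to neurons and 1 from PP to neurons, and 1 5hmC peak was higher from PP to DP, 1 lower from DP to neurons and 2 higher from PP to neurons. Under centring the median 5hmC level differs by 0.04 between DP and neurons. The tables do not give the depth behind a level, and 5mC levels near 2 or 3 normalised reads are the least certain.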

Other observations

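Farther along the body of Sfxn5, 83.2 to 104 kb behind the Emx1 start, the authors assigned 5 5mC peaks to Sfxn5 itself. Their differences from PP to neurons lay between -0.58 and 0.0054. The 2 5hmC peaks assigned to Sfxn5, at 108 and 114 kb, differed by 0.20 and 0.14. None of these 7 peaks passed 1.5-fold in any transition, whereas Sfxn5 expression was 3.78-fold lower in neurons than in PP. Before Emx1, the only other peak within 50 kb of the start was a 5hmC peak 18.6 kb upstream, nearest to the pseudogene Spr-ps1, with levels of 4.74 for PP, 5.06 for DP and 5.33 for neurons, a difference from PP to neurons of 0.59, just past 1.5-fold.

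Among 10915 genes with a peak of both marks, the pair of expression differences nearest to that of Emx1, by Euclidean distance over 3 cell types, belonged to Gm9920, Tnfaip8l3, Gm12970, Coro1c and Igdcc3, at distances of 0.042, 0.067, 0.073, 0.089 and 0.12. Gm9920 and Gm12970 were hardly expressed, at values of at most 3.9 and 4.4. Coro1c, an actin-binding coronin, stood at 9950.7 for PP, 21355.7 for DP and 10337.2 for neurons, and Igdcc3 at 978.9, 2118.7 and 1043.5.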
